A study of Mus musculus with 20 samples.

Results

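The SLC25 mitochondrial carriers were followed in liver RNA on 20 Illumina mouse BeadChip arrays, from male mice that all received a high fat diet. Members were all probes whose symbol in the platform's probe table begins with Slc25a and a number. The array held 76 such probes for 46 genes. Of these, 47 probes for 33 genes had a detection p-value under 0.05 on 5 or more of the 20 arrays and were analysed, out of 18285 probes that passed the same filter. The other 29 probes failed it. Just inside the limit was a Slc25a12 probe detected on 5 arrays, and just outside it a further Slc25a20 probe detected on 4. The 13 genes left with no analysed probe were Slc25a2, Slc25a4, Slc25a18, Slc25a21, Slc25a27, Slc25a29, Slc25a31, Slc25a35, Slc25a40, Slc25a41, Slc25a43, Slc25a51 and Slc25a54. Among the 47 analysed probes 36 were detected on all 20 arrays, and 11 genes had more than 1 analysed probe.

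SLC25 proteins form the largest family of solute carriers. They sit mostly in the inner mitochondrial membrane and exchange nucleotides, cofactors, phosphate, carboxylates, amino acids, acylcarnitines and metals between cytosol and matrix. In hepatocytes they connect fatty acid oxidation, the urea cycle, gluconeogenesis, lipogenesis and haem synthesis across that membrane. Some members lie elsewhere: Slc25a17 is a peroxisomal carrier and Slc25a46 is an outer membrane protein with a part in mitochondrial fission.

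Each of the 4 groups had 5 arrays. Mice were C57BL/6 wild type or ApoE-/-, the latter without apolipoprotein E, and were either injected intraperitoneally with an antagonist of Toll-like receptors 7 and 9 at 15 mg/kg, 3 times a week between weeks 6 and 11, or left without antagonist. All livers came from animals aged 14 weeks that had eaten a high fat diet from week 6, so the last injection preceded sampling by weeks. The diet held 35% fat and 0.03% cholesterol for wild-type mice, and 21% fat and 0.15% cholesterol for ApoE-/- mice. Genotype, diet formula and the set in which arrays had been scaled before deposit changed together and cannot be told apart. The labels number the replicates without saying that they were different animals, and the p-values therefore rest on a spread between arrays that could be technical in part. Values below are normalised log2 signals, and a change is the difference of 2 group means on that scale. A probe was called at a Benjamini-Hochberg adjusted p under 0.05 over all 18285 probes in limma.

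The arrays fell into 2 batches by the form of their column names, with replicates 1 to 3 of every group in batch 1 and replicates 4 and 5 in batch 2. In batch 2 the 2 untreated ApoE-/- arrays carried a column-name prefix of their own, read here as a separate slide. Detected probes per array numbered 14436 to 16032 in untreated and 16051 to 18748 in treated wild type, without overlap. In ApoE-/- livers they numbered 15530 to 16660 untreated and 15816 to 17598 treated. Median non-normalized signals were 103.4 to 124.6 on untreated and 91.9 to 99.5 on treated wild-type arrays. The part of these array differences in the carrier changes was not tested. The Apoe probe read 13.60 to 14.61 on wild-type and 5.26 to 6.88 on ApoE-/- arrays. The summed signal of 8 hepatocyte markers overlapped between all groups (103330 to 119688 in untreated and 105606 to 118727 in treated wild type, 114108 to 122367 in untreated and 107314 to 122125 in treated ApoE-/-). Of 11 measured Kupffer cell and macrophage markers, 8 rose and 1 fell with antagonist in wild type, and 7 rose in ApoE-/- mice. Their summed signal was 2811 to 4379 in untreated and 10638 to 14236 in treated wild type, and 8764 to 10973 and 11966 to 18506 in untreated and treated ApoE-/- mice. For comparison, 18.9% of all probes rose and 18.4% fell in wild type, and 14.2% rose in ApoE-/- livers. Endothelial markers (5 of 6) and stellate and fibroblast markers (4 of 7) also rose in wild type, as did markers of T and NK cells (4 of 5) and neutrophils (3 of 5), while 0 of 4 adipocyte markers passed the detection filter. In ApoE-/- livers 2 of 6 endothelial, 1 of 7 stellate and fibroblast, 5 of 5 T and NK cell and 0 of 5 neutrophil markers rose. The antagonist effect was called lower in ApoE-/- livers for 4 macrophage, 2 endothelial, 2 neutrophil, 1 stellate and 0 T and NK cell markers. Of all probes 1.57% were. In whole liver, fewer cells of a type and less RNA per cell cannot be told apart, and the part of these cells in the carrier values was not tested.

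The 4 carriers with the largest called changes were Slc25a30, Slc25a25, Slc25a20 and Slc25a47. For that reason the 300 bases around their listed transcription starts (250 before and 50 after) are shown. All 4 fell in wild-type livers, and 2 of them were not called for the antagonist in ApoE-/- livers. The sequences are RefSeq's for the mouse assembly GRCm38.p6, each written 5′ to 3′ on the gene's own strand. Capitals mark matches on either strand to CCAAT, to the nuclear receptor element AGGTCA, or to the cAMP response element TGACGTCA with its overlapping cores TGACG. Slc25a25 has 3 listed starts, of which the most upstream and the most downstream are printed.
Slc25a30, chr14:75786988-75787287, minus strand: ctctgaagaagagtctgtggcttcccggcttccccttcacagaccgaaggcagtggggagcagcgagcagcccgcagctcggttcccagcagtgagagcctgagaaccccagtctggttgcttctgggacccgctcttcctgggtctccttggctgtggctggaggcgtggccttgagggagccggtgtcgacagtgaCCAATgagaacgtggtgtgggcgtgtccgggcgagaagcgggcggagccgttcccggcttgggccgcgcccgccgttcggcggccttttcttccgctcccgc
Slc25a25, upstream start, chr2:32451421-32451720, minus strand: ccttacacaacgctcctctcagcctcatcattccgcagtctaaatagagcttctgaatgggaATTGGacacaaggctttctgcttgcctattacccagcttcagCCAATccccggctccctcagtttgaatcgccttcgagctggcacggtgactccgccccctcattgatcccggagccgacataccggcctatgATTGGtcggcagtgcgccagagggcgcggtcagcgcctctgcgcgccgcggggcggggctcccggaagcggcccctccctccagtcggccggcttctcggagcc
Slc25a25, downstream start, chr2:32424017-32424316, minus strand: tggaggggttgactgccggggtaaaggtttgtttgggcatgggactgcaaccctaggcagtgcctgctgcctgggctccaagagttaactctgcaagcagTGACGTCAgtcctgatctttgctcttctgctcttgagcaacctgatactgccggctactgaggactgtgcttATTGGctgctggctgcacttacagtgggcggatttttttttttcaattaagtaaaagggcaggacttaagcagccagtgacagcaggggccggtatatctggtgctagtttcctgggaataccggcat
Slc25a20, chr9:108661886-108662185, plus strand: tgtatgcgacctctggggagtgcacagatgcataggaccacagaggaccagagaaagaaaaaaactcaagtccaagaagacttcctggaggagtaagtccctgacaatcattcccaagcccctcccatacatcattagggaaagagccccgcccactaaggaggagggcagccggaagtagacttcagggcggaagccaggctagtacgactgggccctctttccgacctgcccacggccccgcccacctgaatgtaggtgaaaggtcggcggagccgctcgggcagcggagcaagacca
Slc25a47, chr12:108850879-108851178, plus strand: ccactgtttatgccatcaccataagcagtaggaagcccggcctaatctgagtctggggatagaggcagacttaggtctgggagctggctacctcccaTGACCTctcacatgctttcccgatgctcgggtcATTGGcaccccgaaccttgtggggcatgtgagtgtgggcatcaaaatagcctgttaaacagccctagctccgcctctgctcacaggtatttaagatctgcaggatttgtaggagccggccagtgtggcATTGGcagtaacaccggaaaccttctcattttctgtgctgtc
The downstream Slc25a25 window held the full cAMP response element TGACGTCA, starting 150 bases before the start. That sequence was present in 588 of 32851 such windows in the table (1.79%) and in 2 of 37 windows of 28 of the analysed carrier genes. The other Slc25a25 windows held neither it nor its core. CCAAT or its complement occurred in the windows of Slc25a30, Slc25a25 and Slc25a47 and not in that of Slc25a20, against 37.4% of all windows and 51.4% of the carrier windows. The nuclear receptor element was found in the Slc25a47 window and in 16.3% of all windows. Neither the E-box CACGTG (7.15% of all windows) nor the FoxO site GTAAACA (3.65%) occurred in any of these windows. These matches describe letters in a window and do not show binding.

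In wild-type livers more carrier probes fell than rose with antagonist at the main setting. Of the 47 probes 19 fell and 1 rose, covering 16 and 1 genes, and 27 were not called. The 19 include a dim Slc25a42 probe (ILMN_2556233) that passed the detection filter only through the untreated wild-type arrays. Over all probes tested 18.4% fell and 18.9% rose (37.3% called in either direction), while 40.4% of the carrier probes fell. The median change was -0.23 over the carrier probes and -0.03 over all probes, and 37 of the 47 carrier changes were below 0. Among the 36 probes detected on every array 17 fell and 0 rose. In 15 probes every treated wild-type array lay below every untreated one, against 12.8% of all probes.

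The direction of the small changes depended on the scaling of the arrays. When arrays were scaled to equal medians in place of quantile normalization, the median change of all probes in wild type moved from -0.03 to 0.22, and the share of calls that were rises went from 50.6% to 85.5%. Under that scaling 17 carrier probes were called, 8 lower and 9 higher. The 8 lower ones were the probes of Slc25a30, Slc25a25, Slc25a47, Slc25a10, Slc25a33 and Slc25a42 (ILMN_2810937), and both of Slc25a20, at -3.69 to -1.11 relative to the median of all probes, so 11 of the 19 falls lost their call. The 9 higher ones belonged to Slc25a12, Slc25a14, Slc25a15, Slc25a24, Slc25a36 and Slc25a38 and lay 0.11 to 0.43 above that median.

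**Figure D1:**
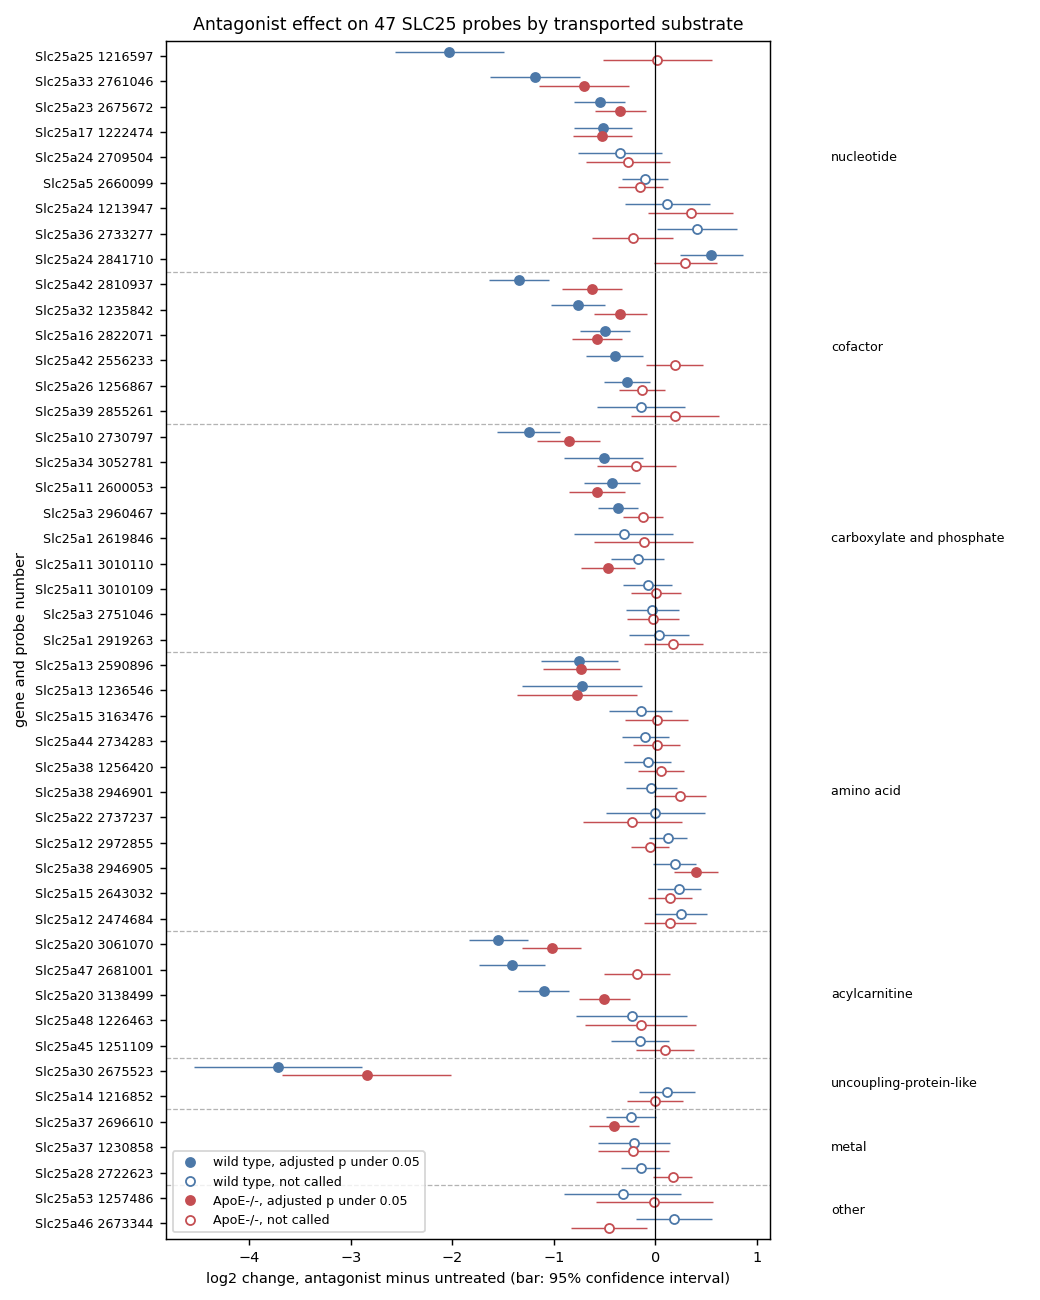
Change in normalised log2 signal with antagonist for the 47 SLC25 probes (rows, grouped by transported substrate), in wild-type (blue) and ApoE-/- (red) livers, with 95% confidence intervals and filled points where the limma adjusted p was under 0.05. Filled points lie to the left of 0 for all but 1 probe in each genotype, and Slc25a25 and Slc25a47 are far from 0 in wild type and close to it in ApoE-/- livers.

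In ApoE-/- livers carriers also moved mostly downwards. There 15 probes of 12 genes fell and 1 rose, against 14.9% and 14.2% of all probes (29.1% called in either direction). The median change was -0.15 over the carrier probes and -0.02 over all probes, and 31 of 47 changes were below 0. In 8 probes all treated arrays lay below all untreated ones, against 8.9% of all probes. With equal medians 10 carrier probes fell and 1 rose, and the share of rises among all calls went from 48.7% to 66%. The falls that lost their call were those of Slc25a23, Slc25a32, Slc25a37 (ILMN_2696610), Slc25a11 (ILMN_3010110) and Slc25a13 (ILMN_1236546). Without the 2 untreated ApoE-/- arrays with their own prefix, 11 probes were called, and those of Slc25a17, Slc25a32, Slc25a33 and both of Slc25a13 were the calls lost. Within batch 2 only the probes of Slc25a30 and Slc25a20 (ILMN_3061070) were called, 2 of 47, and there the presumed slide and the untreated ApoE-/- group cannot be told apart.

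The antagonist lowered 13 probes of 11 genes in both genotypes, compared with 10.4% of all probes. With equal medians this count was 6 probes of 5 genes, compared with 3.53% of all probes. The genes at the main setting were Slc25a17, Slc25a23, Slc25a33, Slc25a16, Slc25a32, Slc25a42, Slc25a10, Slc25a11, Slc25a13, Slc25a20 and Slc25a30. A call in 1 genotype alone is no difference between genotypes. Tested directly, the antagonist effect differed between genotypes for 2 carrier probes, those of Slc25a25 and Slc25a47, against 2.33% of all probes (0.76% with the higher and 1.57% with the lower value in ApoE-/-). The median difference, ApoE-/- minus wild type, was 0.14 over the carriers and -0.02 over all probes.

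Among the nucleotide carriers 4 of 9 probes fell and 1 rose in wild type, and 3 fell in ApoE-/- livers. Of all probes 18.4% fell and 18.9% rose in wild type, and 14.9% fell in ApoE-/- livers. Slc25a25 is a calcium-regulated carrier that exchanges ATP-magnesium for phosphate and so sets the adenine nucleotide pool of the matrix. Its probe read 11.80, 11.19, 11.86, 11.95 and 11.92 on untreated wild-type arrays and 10.43, 9.46, 8.59, 10.20 and 9.88 on treated ones. In ApoE-/- livers it read 11.55, 11.66, 11.49, 11.58 and 11.55 untreated, and 10.85, 11.71, 11.70, 11.78 and 11.87 treated. All treated wild-type arrays lay below all other arrays of the study, whereas 4 of 5 treated ApoE-/- arrays lay above every untreated ApoE-/- array and 1 below. The wild-type change was -2.03 ± 0.26 (SE), 4.09-fold lower, with a limma adjusted p of 2.58e-06. The ApoE-/- change was 0.02 ± 0.26 (95% interval -0.52 to 0.55, adjusted p = 0.973). The difference between these effects was 2.05 (95% interval 1.29 to 2.81, adjusted p = 0.00446). Within batch 1 the difference was 1.98 and lost its call (adjusted p = 0.131), and within batch 2 it was 2.15 (adjusted p = 0.011).

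Slc25a33, an importer of pyrimidine nucleotides, read 9.61, 9.07, 9.42, 9.43 and 8.84 in untreated and 8.68, 8.13, 8.06, 7.81 and 7.78 in treated wild-type livers. The ApoE-/- values were 9.30, 9.49, 8.99, 9.53 and 9.33 untreated and 8.48, 8.33, 8.04, 9.32 and 8.95 treated. The wild-type groups did not overlap, and in ApoE-/- livers treated replicate 4 lay within the untreated range. The fall was -1.19 ± 0.21 in wild type (adjusted p = 0.000164) and -0.70 ± 0.21 in ApoE-/- livers (adjusted p = 0.0166). The ApoE-/- call was lost without treated replicate 3 (adjusted p = 0.0597), and the change there was -0.98 in batch 1 and -0.29 in batch 2. The difference between genotypes was 0.48 (adjusted p = 0.52).

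Slc25a17, which carries coenzyme A and other cofactors into peroxisomes, fell by 0.52 in each genotype (adjusted p = 0.00537 in wild type and 0.00665 in ApoE-/- livers). The ApoE-/- call was lost within batch 2 (adjusted p = 0.124) and without the 2 prefixed arrays (-0.41, adjusted p = 0.064). The wild-type call was lost with equal medians (-0.34, adjusted p = 0.12). Slc25a23, a calcium-regulated relative of Slc25a25, fell by 0.55 in wild type (adjusted p = 0.00116) and by 0.34 in ApoE-/- livers (adjusted p = 0.037), where 7 of the 20 single arrays, left out in turn, ended the call. Its wild-type call was lost with equal medians (-0.17, adjusted p = 0.285). The group means of Slc25a5, the adenine nucleotide translocase of most tissues, were 13.26 and 13.16 in untreated and treated wild type and 13.32 and 13.17 in ApoE-/- livers. Neither change passed (adjusted p = 0.504 and 0.343). Slc25a24, another calcium-regulated ATP-magnesium carrier, had 3 probes. One of them (ILMN_2841710) was detected on 0 of 5 untreated and on 5 of 5 treated wild-type arrays, which gives a rise of at least 1.05-fold (adjusted p = 0.00597). The other two changed by 0.12 and -0.35 and were not called. Slc25a36, a second pyrimidine nucleotide carrier, changed by 0.41 in wild type (adjusted p = 0.101) and by -0.23 in ApoE-/- livers (adjusted p = 0.423).

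**Figure D2:**
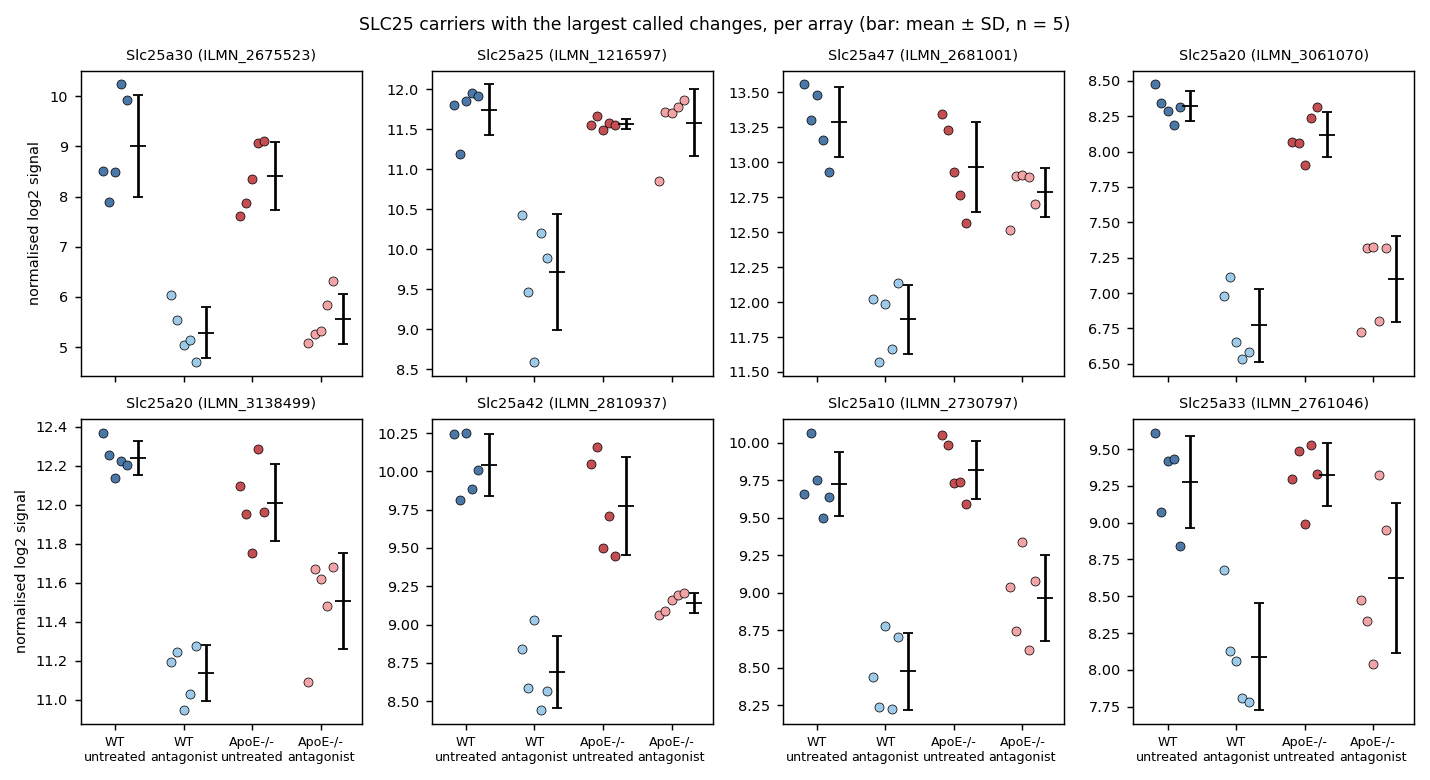
Normalised log2 signal (y axis, scaled separately for each probe) on each array of the 4 groups for the 8 probes with a called change of at least 1 or a called difference between genotypes, with the mean and SD of 5 arrays. Treated wild-type points lie below untreated ones in every panel. Treated ApoE-/- points overlap the untreated ones for Slc25a47 and lie on both sides of them for Slc25a25. For Slc25a33 treated ApoE-/- replicate 4 lies within the untreated range.

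Among the cofactor carriers 5 of 6 probes fell in wild type and 3 in ApoE-/- livers, against 18.4% and 14.9% of all probes. The 5 include the dim second Slc25a42 probe, whose fall is limited by the detection filter as described below. With equal medians only the Slc25a42 probe ILMN_2810937 kept its wild-type call. Slc25a42 brings coenzyme A into the matrix, where it is needed for fatty acid oxidation and the citric acid cycle. Its brighter probe (ILMN_2810937) read 10.24, 9.81, 10.25, 9.88 and 10.01 untreated and 8.84, 8.59, 9.03, 8.44 and 8.57 treated in wild type. The ApoE-/- arrays read 10.05, 10.16, 9.50, 9.71 and 9.45 untreated and 9.06, 9.09, 9.16, 9.19 and 9.21 treated. The treated arrays lay below the untreated ones in both genotypes without overlap. The changes were -1.35 ± 0.14 in wild type (adjusted p = 2.32e-07) and -0.63 ± 0.14 in ApoE-/- livers (adjusted p = 0.00198). Their difference of 0.72 (95% interval 0.30 to 1.14) did not pass (adjusted p = 0.0658). It passed with the batch as a block, with no background correction, with only probes detected on all arrays, and in a robust fit. The dim second probe of Slc25a42 (ILMN_2556233) was detected on 3 untreated and 0 treated wild-type arrays and fell at least 1.13-fold (adjusted p = 0.0237), a call that ended when any of 5 single arrays was left out. The probe passed the detection filter only through those untreated wild-type arrays, so its wild-type fall is not independent of the filter. The ApoE-/- change of this probe was 0.19 (adjusted p = 0.326).

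Slc25a32, linked to folate and flavin transport, fell by 0.77 in wild type (adjusted p = 6.51e-05). In ApoE-/- livers its change was -0.35 (adjusted p = 0.0452), and any of 10 single arrays left out ended that call. Slc25a16, linked to matrix coenzyme A, fell by 0.50 and 0.58 in the wild-type and ApoE-/- livers (adjusted p = 0.00196 and 0.000806). Slc25a26 imports S-adenosylmethionine, the methyl donor. Its change of -0.28 in wild type lay at the threshold (adjusted p = 0.048), was lost without any of 15 single arrays, and was 0.12 with equal medians. Slc25a39, a glutathione importer, had changes of -0.14 and 0.19 that did not pass (adjusted p = 0.645 and 0.552).

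The carboxylate and phosphate carriers showed 4 falls among 9 probes in wild type and 3 in ApoE-/- livers, against 18.4% and 14.9% of all probes. Slc25a10 exchanges malate and succinate for phosphate. Its probe read 9.66, 10.07, 9.75, 9.50 and 9.64 untreated and 8.44, 8.24, 8.78, 8.22 and 8.70 treated in wild type. The ApoE-/- arrays read 10.06, 9.99, 9.73, 9.74 and 9.59 untreated and 9.04, 8.75, 9.34, 8.62 and 9.08 treated. Neither genotype had overlapping groups. The fall was -1.25 ± 0.15 in wild type (2.38-fold, adjusted p = 1.24e-06) and -0.86 ± 0.15 in ApoE-/- livers (1.81-fold, adjusted p = 0.000204), and the difference of 0.39 did not pass (adjusted p = 0.419).

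Slc25a11 exchanges 2-oxoglutarate for malate in the malate-aspartate shuttle, and its 3 probes disagreed. Probe ILMN_2600053 fell by 0.43 in wild type (adjusted p = 0.0136) and by 0.58 in ApoE-/- livers (adjusted p = 0.00219), but the wild-type call was lost within either batch and the change was 0.02 with equal medians. Probe ILMN_3010110 fell in ApoE-/- livers (-0.47, adjusted p = 0.00796) and was not called in wild type (-0.18). Probe ILMN_3010109 changed by -0.08 and 0.01. For Slc25a3, the phosphate carrier that feeds ATP synthase, probe ILMN_2960467 fell in wild type (-0.36, adjusted p = 0.0042) while the other probe changed by -0.03 (adjusted p = 0.878). The call of ILMN_2960467 was lost with equal medians (-0.14, adjusted p = 0.449). Slc25a34, a carrier of uncertain substrate in mammals, changed by -0.51 in wild type (adjusted p = 0.0351), and any of 6 single arrays left out ended the call. Slc25a1 exports citrate for lipid synthesis. Neither of its probes was called for the antagonist, with changes of -0.31 and 0.04 in wild type and -0.11 and 0.18 in ApoE-/- livers.

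Among the amino acid carriers 2 of 11 probes fell in wild type, where 18.4% of all probes fell. In the ApoE-/- comparison 2 fell and 1 rose, where 14.9% of all probes fell and 14.2% rose. Both falls belonged to Slc25a13, the aspartate-glutamate carrier of liver, known as citrin, which serves the malate-aspartate shuttle and supplies aspartate for the urea cycle. Probe ILMN_2590896 had means of 8.57 and 7.82 in untreated and treated wild type and of 8.54 and 7.81 in ApoE-/- livers. Its changes were -0.75 ± 0.18 (adjusted p = 0.00253) and -0.73 ± 0.18 (adjusted p = 0.00433). The ApoE-/- call was lost within batch 2 (adjusted p = 0.146) and without the 2 prefixed arrays (-0.55, adjusted p = 0.0574). The wild-type call was lost with equal medians (-0.41, adjusted p = 0.0834). The second probe changed by -0.72 and -0.77, at the threshold in both genotypes (adjusted p = 0.0498 and 0.0449), and lost its wild-type call without any of 13 single arrays and its ApoE-/- call without any of 11. Slc25a12, the related carrier of muscle and brain, changed by 0.12 and -0.06 in its brighter probe and was not called in either genotype.

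Slc25a15 exchanges ornithine and citrulline for the urea cycle, and its probes changed by 0.23 and -0.15 in wild type (adjusted p = 0.0947 and 0.478). Slc25a38, a glycine importer that serves haem synthesis, rose in ApoE-/- livers in 1 of 3 probes (ILMN_2946905, 0.40 ± 0.10, adjusted p = 0.00526). The same probe changed by 0.19 in wild type (adjusted p = 0.16), and the difference of 0.21 did not pass (adjusted p = 0.57). Slc25a22, a glutamate carrier, and Slc25a44, a branched-chain amino acid carrier, had no called change, with the wild-type values at 0.00 and -0.10.

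Of the carriers grouped here as acylcarnitine carriers 3 of 5 probes fell in wild type and 2 of 5 in ApoE-/- livers. The shares of all probes that fell were 18.4% and 14.9%. Both ApoE-/- falls were probes of Slc25a20, and the wild-type falls were the same probes and that of Slc25a47. Slc25a20 is the carnitine-acylcarnitine translocase, which brings long-chain fatty acids into the matrix for oxidation. Probe ILMN_3138499 read 12.37, 12.26, 12.14, 12.23 and 12.20 untreated and 11.19, 11.24, 10.95, 11.03 and 11.28 treated in wild type. The ApoE-/- arrays read 12.10, 11.96, 11.75, 12.29 and 11.96 untreated and 11.09, 11.67, 11.62, 11.48 and 11.68 treated. In both genotypes the groups stayed apart, by a narrow gap in ApoE-/- livers. Its fall was -1.10 ± 0.12 in wild type (adjusted p = 3.36e-07) and -0.50 ± 0.12 in ApoE-/- livers (adjusted p = 0.00291), with a difference of 0.60 (95% interval 0.25 to 0.95, adjusted p = 0.0695). That difference passed under 5 of the alternative settings.

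The second Slc25a20 probe (ILMN_3061070) read 8.47, 8.34, 8.29, 8.19 and 8.32 untreated and 6.98, 7.11, 6.65, 6.53 and 6.58 treated in wild type, and 8.07, 8.06, 7.91, 8.24 and 8.31 untreated and 6.73, 7.32, 7.32, 6.80 and 7.32 treated in ApoE-/- livers. It too had no overlap in either genotype. It fell by 1.55 ± 0.14 (adjusted p = 2.93e-08) and 1.02 ± 0.14 (adjusted p = 1.74e-05), so both probes of the translocase moved the same way. For this probe the difference between genotypes was not called at the main setting or any alternative. It was 0.56 within batch 1 (adjusted p = 0.398) and 0.48 within batch 2 (adjusted p = 0.377).

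Slc25a47 is a carrier found mainly in liver whose substrate has been debated. It read 13.56, 13.31, 13.48, 13.16 and 12.93 untreated and 12.03, 11.57, 11.98, 11.66 and 12.14 treated in wild type. In ApoE-/- livers it read 13.34, 13.23, 12.93, 12.76 and 12.56 untreated and 12.51, 12.90, 12.91, 12.89 and 12.70 treated. Every treated wild-type array lay below every other array, and the ApoE-/- groups overlapped. The wild-type change was -1.41 ± 0.16 (2.66-fold lower, adjusted p = 4.37e-07), and the ApoE-/- change was -0.18 ± 0.16 (95% interval -0.51 to 0.14, adjusted p = 0.429). The difference was 1.23 (95% interval 0.77 to 1.69, adjusted p = 0.00466). Within batch 1 it was 1.19 (adjusted p = 0.0361), and within batch 2 it was 1.28 and lost its call (adjusted p = 0.0676). The related Slc25a45 and Slc25a48 changed by -0.15 and -0.23 in wild type and by 0.09 and -0.15 in ApoE-/- livers, without a call.

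Slc25a30, a relative of the uncoupling proteins first described in kidney, had the largest change of the 47 probes in both genotypes. It read 8.51, 7.90, 8.48, 10.23 and 9.91 untreated and 6.04, 5.53, 5.03, 5.13 and 4.71 treated in wild type. The ApoE-/- arrays read 7.62, 7.87, 8.36, 9.06 and 9.12 untreated and 5.09, 5.25, 5.32, 5.84 and 6.31 treated. All 10 treated arrays lay below all 10 untreated ones, and the untreated arrays of batch 2 read higher than those of batch 1 in each genotype. The fall was -3.72 ± 0.40 in wild type (13.2-fold, adjusted p = 2.99e-07) and -2.84 ± 0.40 in ApoE-/- livers (7.18-fold, adjusted p = 2.18e-05). The difference of 0.87 did not pass (95% interval -0.30 to 2.05, adjusted p = 0.533). Within batches the wild-type change was -2.76 and -5.15, and the ApoE-/- change was -2.73 and -3.01. The lowest treated readings lay near background, and the size of the fall depended on the processing. Over all alternative settings and omitted arrays it ran from -5.15 to -2.28 in wild type and from -3.04 to -1.67 in ApoE-/- livers, and stayed called. The difference in effects was 0.03 within batch 1 (adjusted p = 0.986) and 2.14 within batch 2, where it was called (adjusted p = 0.0225). Slc25a14, the other measured carrier of this branch, changed by 0.12 and 0.00 without a call.

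The metal carriers deliver iron for haem and iron-sulfur clusters. Slc25a37, the mitoferrin of red cell precursors, fell in ApoE-/- livers in its brighter probe (ILMN_2696610, -0.41 ± 0.12, adjusted p = 0.0121) and changed by -0.24 in wild type (adjusted p = 0.115). The ApoE-/- call was lost with equal medians (-0.28, adjusted p = 0.203). The difference was -0.17 (adjusted p = 0.738). Slc25a28, the mitoferrin of other tissues, changed by -0.15 and 0.17 and was not called. The 3 measured red cell markers had a summed signal of 5092 to 15430 in untreated and 10063 to 16142 in treated ApoE-/- livers, and their part in the Slc25a37 value was not tested. These markers did not move together. In ApoE-/- livers 1 rose, 1 fell and 1 was not called, where 14.2% of all probes rose and 14.9% fell. In wild type 2 rose and 1 fell, where 18.9% of all probes rose and 18.4% fell. Slc25a46 and Slc25a53, both dim, were not called, with wild-type changes of 0.19 and -0.32.

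**Figure D3:**
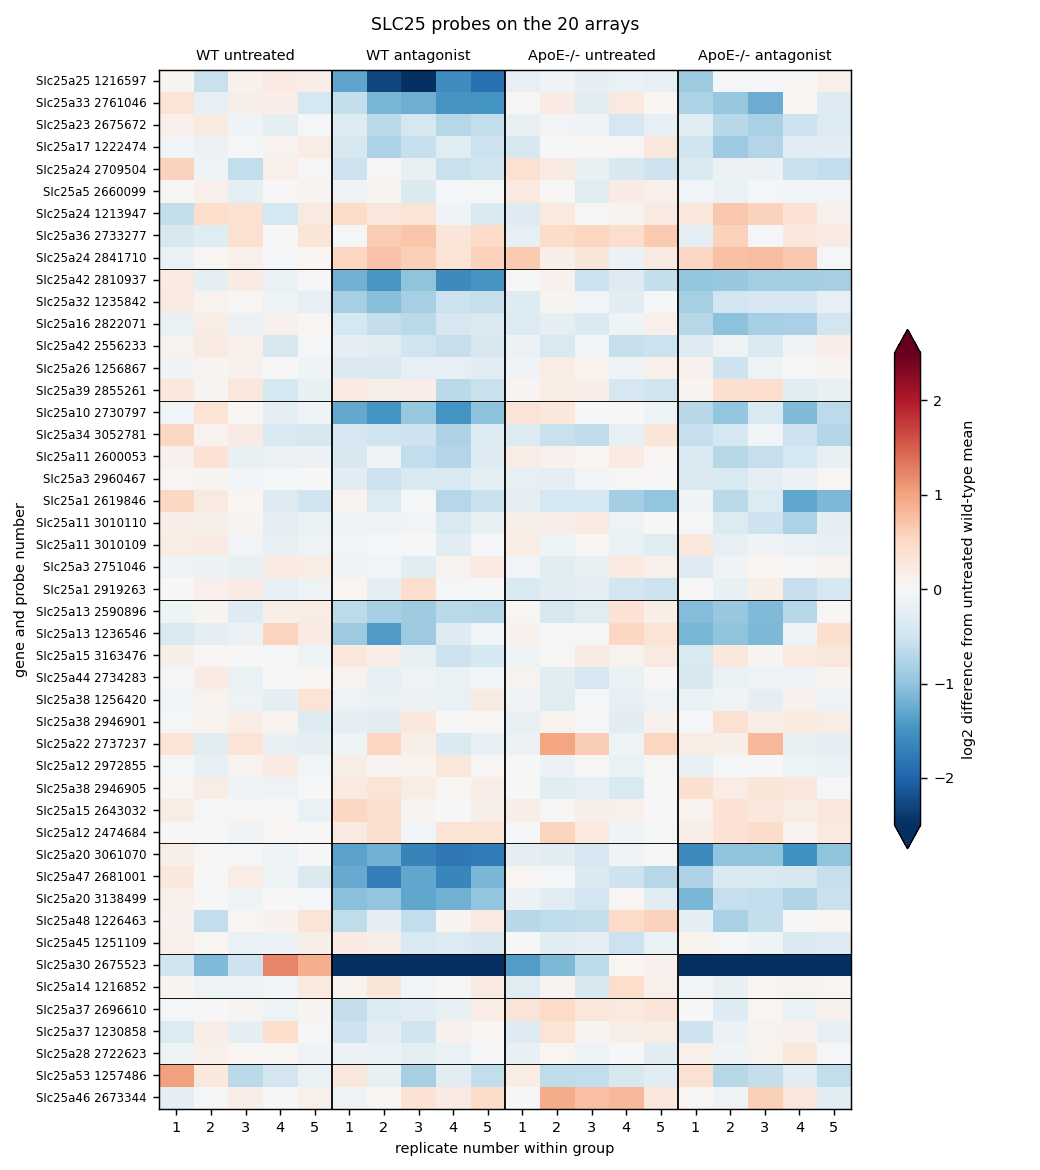
Difference of each SLC25 probe (rows, grouped by substrate) on each array (columns, by group and replicate number) from its mean over the untreated wild-type arrays, on the log2 scale with colours limited at 2.5 in either direction. Slc25a30 is dark blue on all 10 treated arrays, and Slc25a25 on treated wild-type arrays.

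In mice without antagonist no carrier passed the test between genotypes. For untreated ApoE-/- against untreated wild-type livers limma called 0 of 47 carrier probes, against 4.67% of all probes (3.41% higher and 1.25% lower in ApoE-/-), and 5 carrier probes had an unadjusted p under 0.05. The median difference was -0.07, and the smallest adjusted p was 0.0917. The probes with an unadjusted p under 0.05 were both of Slc25a1 (-0.59 and -0.38), the brighter one of Slc25a37 (0.33), the dim one of Slc25a42 (-0.34) and that of Slc25a46 (0.56). Other fits called 0 to 3 probes, and with the batch as a block the called ones were both Slc25a1 probes.

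Among treated mice 2 carrier probes differed between genotypes, against 4.41% of all probes (2.56% higher and 1.84% lower in ApoE-/-), and these were again Slc25a25 and Slc25a47. This comparison shares its treated arrays with the test of the genotype difference above. Slc25a25 was 1.87 higher in treated ApoE-/- than in treated wild-type livers (95% interval 1.33 to 2.41, 3.65-fold, adjusted p = 0.000139). Slc25a47 was 0.91 higher (95% interval 0.58 to 1.23, 1.88-fold, adjusted p = 0.00148). For both genes no treated wild-type array reached the lowest treated ApoE-/- array. Both calls held in all 15 alternative settings, the within-batch fits included. With equal medians the share of higher values among the calls of all probes went from 58.2% to 27.7% here, from 32.6% to 6.33% for the difference in effects and from 73.2% to 85.2% in untreated mice, and the same 2 carriers were called in the first 2 of these.

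Enzymes that work beside the carriers were counted from lists of known partners. These lists were counted at the main setting only, and the dependence of their calls on the scaling of the arrays was not tested. For comparison, 18.4% of all probes fell in wild type and 14.9% in ApoE-/- livers. In the carnitine shuttle 3 of 5 genes fell in wild type and 2 in ApoE-/- livers. Cpt1a and Cpt1b were not called in either genotype. The dim Cpt1a probe was detected on 1 untreated and 0 treated wild-type arrays, and on 3 in each ApoE-/- group. Its changes were -0.27 (adjusted p = 0.4) and -0.24 (adjusted p = 0.491). Cpt2, which remakes acyl-CoA on the matrix side of Slc25a20, fell by 1.03 in wild type (adjusted p = 2.67e-08) and by 0.49 in ApoE-/- livers (adjusted p = 0.000439), and the effects differed by 0.54 (adjusted p = 0.0297). Crat, a carnitine acetyltransferase, fell by 1.79 in wild type (adjusted p = 8.81e-06) and changed by -0.64 in ApoE-/- livers (adjusted p = 0.0606). Slc22a5, the plasma membrane carnitine transporter, fell by 1.63 (adjusted p = 5.07e-06) and 0.59 (adjusted p = 0.0484).

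In the urea cycle list of 7 genes 3 rose in each genotype, while 1 fell in wild type and 2 fell in ApoE-/- livers. Of all probes 18.9% rose and 18.4% fell in wild type, and 14.2% rose and 14.9% fell in ApoE-/- livers. In wild type Arg1 rose by 0.57 (adjusted p = 6.80e-05), Cps1 by 0.68 (adjusted p = 0.00109) and Ass1 by 0.65 (adjusted p = 0.00138). The single fall in wild type was Otc (-0.87, adjusted p = 0.00543), the enzyme that makes the citrulline exported by Slc25a15. In the ApoE-/- comparison the falls were Otc (-0.75, adjusted p = 0.0187) and Oat, ornithine aminotransferase (-0.32, adjusted p = 0.0439). These falls were singled out after their values were seen. In the malate-aspartate and citrate export list 3 of 7 fell in wild type and 1 rose, against 18.4% and 18.9% of all probes. Me1, malic enzyme, fell by 1.90 in wild type (adjusted p = 1.28e-07) and by 0.74 in ApoE-/- livers (adjusted p = 0.00573), with a difference of 1.16 (adjusted p = 0.0253). Acly, which splits the citrate exported by Slc25a1, rose by 0.66 (adjusted p = 3.22e-05) and 0.54 (adjusted p = 0.000419).

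Of the iron-sulfur and haem genes 4 of 5 fell in wild type and 2 in ApoE-/- livers, against 18.4% and 14.9% of all probes. Alas1, the first enzyme of haem synthesis, which uses the glycine that Slc25a38 brings in, fell by 1.30 in wild type (adjusted p = 0.000164) and changed by -0.10 in ApoE-/- livers (adjusted p = 0.811). The difference of 1.21 did not pass (adjusted p = 0.0617). Of the machinery that imports carriers into the inner membrane 3 of 9 genes fell in each genotype, against 18.4% and 14.9% of all probes. Among these genes was the outer membrane receptor Tomm70a (-0.78 and -0.65, adjusted p = 0.00126 and 0.00766). Of 7 other mitochondrial channels and carriers 1 fell in wild type and 1 rose in ApoE-/- livers, against 18.4% and 14.2% of all probes. Relatives that carry other symbols were measured by Mtch1 and Mtch2. Neither was called in wild type, and in ApoE-/- livers Mtch1 rose by 0.25 (adjusted p = 0.0176) and Mtch2 fell by 0.53 (adjusted p = 0.00217). The uncoupling protein genes Ucp1 and Ucp3 were detected on 0 and at most 1 arrays.

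**Figure D4:**
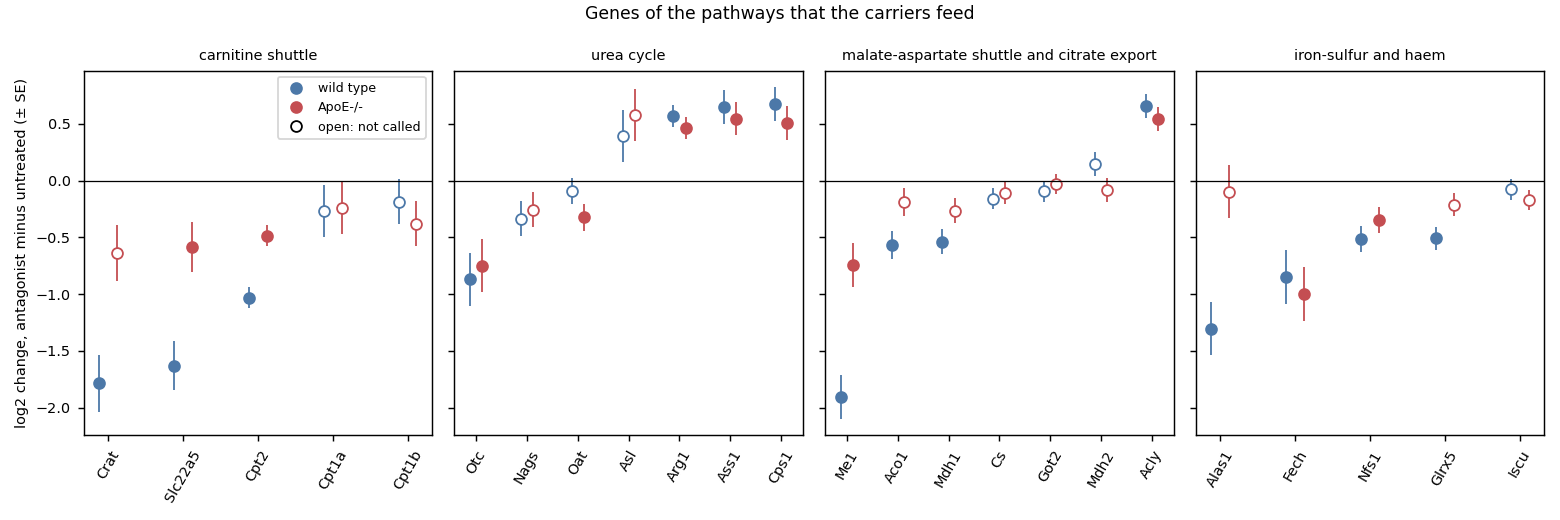
Change in log2 signal with antagonist (± SE) for genes of 4 pathways linked to the carriers, in wild-type (blue) and ApoE-/- (red) livers, filled where the limma adjusted p was under 0.05. Carnitine shuttle genes lie below 0, with Cpt1a and Cpt1b not called in either genotype. Cps1, Ass1 and Arg1 of the urea cycle and Acly lie above 0 in both genotypes.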

How the data were processed

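Total RNA of each liver was extracted on columns, labelled as biotinylated cRNA and hybridised to BeadChips, per the labels' protocols. The deposited non-normalized table gives a signal intensity for each of 45281 probes and each array. Beside it the authors deposited a detection p-value. The submitters' processing notes name GenomeStudio and BeadStudio without a version. Array means were the same within each of 4 sets (genotype by batch), which shows a scaling before deposit that is not described. The authors' series matrix, a processed intensity on a linear scale, served as an alternative.

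In R 4.3.3 with limma 3.58.1, signals were processed by neqc (normexp background correction, quantile normalization, offset 16) and kept where 5 or more of 20 arrays had a detection p under 0.05. A model with 4 group means was fitted to all 20 arrays, and p-values were adjusted over all 18285 probes. Where no array of a group detected a probe, the fold is a lower bound, set against whichever is brighter on each array, that probe or the dimmest detected probe. Per-array values are printed for carriers called with a change of at least 1 or in the genotype difference. For each partner list up to 3 genes with the smallest adjusted p are named, and Otc, Oat, Cpt1a and Cpt1b are named besides. Probes of 1 gene were kept apart. Symbols come from the platform's probe table. Promoters come from RefSeq for GRCm38.p6, matched by symbol for 28 of the 33 genes. The members and lists were chosen with earlier results of these data known. The 5 arrays in a group limit the precision, and 15 alternative settings and the omission of each array were tried.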

Additional observations from a re-analysis of the deposited data

Results flagged for a closer look

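Of 188 combinations of a carrier probe and a group, 7 had an array far from the other 4; chance flags about 1 in 20 groups. For Slc25a25 the lowest untreated wild-type array (replicate 2) read 11.19 with the next at 11.80, and treated ApoE-/- replicate 1 read 10.85 with the next at 11.70. For the Slc25a11 probe ILMN_3010109 treated wild-type replicate 4 read 8.21 and treated ApoE-/- replicate 1 read 8.76. Slc25a36 read 4.55 in untreated ApoE-/- replicate 1, where the probe was below detection on 1 array of the group. Slc25a38 (ILMN_1256420) read 6.98 in treated wild-type replicate 5, and Slc25a5 read 13.09 in treated ApoE-/- replicate 2. The antagonist effect differed between genotypes for Slc25a25, by 2.05, and for Slc25a47, by 1.23 (limma interaction test). Leaving out any 1 of the 20 arrays gave differences of 1.77 to 2.23 for Slc25a25 and 1.13 to 1.32 for Slc25a47, with adjusted p at most 0.0115 and 0.0123.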

How the results depend on the processing

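Of 40 called carrier results, 12 kept their call and direction in every setting that tested them, among them the wild-type falls of Slc25a30, Slc25a25, Slc25a47, Slc25a20, Slc25a42 (ILMN_2810937), Slc25a10 and Slc25a33. With equal medians 2 changed sign in wild type, Slc25a11 (ILMN_2600053, 0.0239) and Slc25a26 (0.12). Leaving out 1 array at a time gave 16 to 20 called probes in wild type, 13 to 17 in ApoE-/-, 2 to 3 for the difference in effects, 0 to 1 for untreated genotypes (1 without untreated ApoE-/- replicate 1) and 2 to 3 for treated genotypes. Within batch 2, with fewer arrays, 12 probes were called in wild type and 2 in ApoE-/-, those of Slc25a30 and Slc25a20; there the untreated ApoE-/- arrays and their presumed slide cannot be told apart. The difference in effects gave 4 called probes with no background correction, with probes detected on all arrays, with the batch as a block and in the robust fit, and 1 within batch 1. Untreated genotypes gave 2 with the batch as a block, 1 with the presumed slide as a random block and 1 within batch 1. Treated genotypes gave 4 with probes detected on all arrays, with the batch block and with the presumed slide block, 6 within batch 2 and 5 in the robust fit. The causes were not tested. Same-numbered arrays are not stated to be paired: 27 of 30 same-number pairs correlated above 0.1 (-0.002 to 0.47), 13 of 30 once batch means were removed (-0.185 to 0.395), and the same number had the highest correlation in 37 of 60 comparisons. With the replicate number as a block 21 probes were called in wild type, 17 in ApoE-/-, 2 for the difference, 3 for untreated and 4 for treated genotypes. Without the 2 untreated ApoE-/- arrays with a column-name prefix of their own, a setting chosen after seeing the data, 18, 11, 2, 0 and 2 were called. The fit of only the arrays compared gave no value for the difference in effects, which needs all 4 groups. The second Slc25a42 probe, Slc25a34 and Slc25a24 (ILMN_2841710) were detected on 7, 18 and 10 of the 20 arrays, so their signal lay near background.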
